A study of Mus musculus with 18 samples.

Results

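APC-deleted MC38 cells that had been kept in doxycycline for 48 h were compared with APC-deleted MC38 cells that had received none. MC38 is a cell line from a colon adenocarcinoma of a C57BL6 mouse, and both groups carry the deletion of Apc, the tumour suppressor gene whose product keeps beta-catenin low. The libraries were chosen by their titles: 3 of the 48 h group and 3 of the untreated group, which makes 6 of the 18 libraries of the series. The other 12 were 3 APC-deleted libraries at 24 h and 9 APC-intact libraries (3 untreated, 3 at 24 h and 3 at 48 h). The series asked what knockdown of TDO2 does in MC38 cells with and without APC, and the drug, at 1 µM, served to switch on a short hairpin against Tdo2. Cells were grown in DMEM with a serum approved for tetracycline-controlled systems. Whether the APC-deleted line is 1 clone, and which promoter drives the hairpin, is not given in the sources used here.

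Some features of the design bear on every result, so they come before the results. The titles name the hairpin for the treated libraries only, while the extraction protocol speaks of hairpin cells with and without drug. It was therefore not settled here whether the untreated cells carried the hairpin. The names of the deposited files also carry a designation read here as a sequencing run, and by it the untreated libraries lay in one run and the 48 h libraries in the other. Doxycycline, the hairpin, the run and, if the untreated cells lacked the hairpin, any older difference between the cells cannot be told apart in this comparison. The 24 h libraries of the same line lay in the same run as the 48 h libraries, so 48 h against 24 h is a comparison within 1 run. The labels call the libraries biological triplicates and do not say that they came from separate cultures. The p-values thus measure the spread between these libraries, which may be technical.

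TDO2 is a haem dioxygenase that opens the indole ring of tryptophan and so starts the kynurenine pathway, a role it shares with IDO1 and IDO2. Kynurenine is known as a ligand of the aryl hydrocarbon receptor, and its production is known to restrain T cells in tumours. Interferon-stimulated genes are a large set switched on through interferon-stimulated response elements, and many of their products act against viruses or tune the interferon signal. Chemokines and colony-stimulating factors draw in and support myeloid cells, and many of their genes are switched on by NF-kB. Doxycycline itself is known to inhibit protein synthesis in mitochondria.

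Gene counts of the 6 libraries ran from 76705116 to 97728594, and 15006 of 39179 genes were tested. Levels are given as CPM, the count of a gene relative to all gene counts of its library, scaled by TMM factors, and changes as log2 fold change ± SE (48 h minus none, n = 3 and 3) from edgeR's quasi-likelihood test. A gene was called when its p-value, adjusted by Benjamini and Hochberg over all genes tested, was under 0.05. Of 30 epithelial genes looked up, 5 had no count in the 6 libraries (Cdx2, Fabp1, Car1, Car4 and Slc26a3, which mark colon epithelium), and Epcam had 1 count in all. The sum of the 30, taken like the other sums here before TMM scaling, was 370 to 418 CPM without drug and 359 to 433 CPM at 48 h. Most of it came from Tjp1 alone (352 to 400 and 343 to 417 CPM), a junction protein of many cell types. Other epithelial genes were counted at lower levels. Among them were the cadherins Cdh17 (5.58 to 5.81 and 4.37 to 5.48 CPM) and Cdh1 (0.88 to 1.47 and 1.34 to 1.85 CPM), and Krt8 and Lgals4, given further below. In the same order, fibroblast markers summed to 6870 to 7650 and 5660 to 6040 CPM, and mesenchymal genes to 5470 to 5720 and 5190 to 5360 CPM. Haematopoietic markers summed to 35.5 to 38.9 and 26.1 to 31.7 CPM, most of it from Cd68 (17.8 to 22.7 and 12.6 to 18.4 CPM) and Cd14 (13.4 to 14.7 and 10.7 to 11.1 CPM), with Cd3e, Emr1 and Tyrobp at no count and Ptprc at 3 counts in all, and endothelial markers to 9.99 to 11.6 and 8.95 to 10.0 CPM. In bulk RNA fewer cells of a type and less RNA per cell cannot be told apart.

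The libraries of 1 group were not equally alike. 48 h replicate 2 differed from 48 h replicates 1 and 3 with a chi-square per degree of freedom of 78.1 and 81.4, against 14.97 between replicates 1 and 3 and 11.9 to 17.2 between the untreated libraries. Outside these 6 libraries, pairs of APC-intact libraries at 24 h had 29.17 to 77.25, and pairs in the remaining groups 7.925 to 28.06. The APC-intact 24 h libraries enter the estimates with the run as a term, given below. The departure of 48 h replicate 2 from the other 48 h libraries followed the GC content of the transcript. In the fifth of genes with the lowest GC content (median 41.2%) it lay below the mean of the others by a median of −0.26 (log2), and in the fifth with the highest (median 57.8%) above it by 0.22. Long genes were low in it and short genes high: the medians were −0.16 in the fifth with the longest exons and 0.10 in the fifth with the shortest. Among well-counted genes that were high in replicate 2, Adamts10 had 22 CPM against 9.64 and 11.5 in replicates 1 and 3, and Fam193b 90.7 CPM against 40.2 and 49.0. Among those that were low, Lpp had 113 CPM against 188 and 216, and Phip 122 against 203 and 215. Results are therefore given with and without this library. Leaving it out did not remove these trends from the change between untreated and 48 h cells. Across genes, the Spearman correlation of that change with GC content was −0.142 with all 6 libraries and −0.413 without replicate 2. With exon length it was 0.272 and 0.357. The estimates without replicate 2 thus followed GC content and length more closely and are not a corrected version of the main fit.

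**Figure D1:**
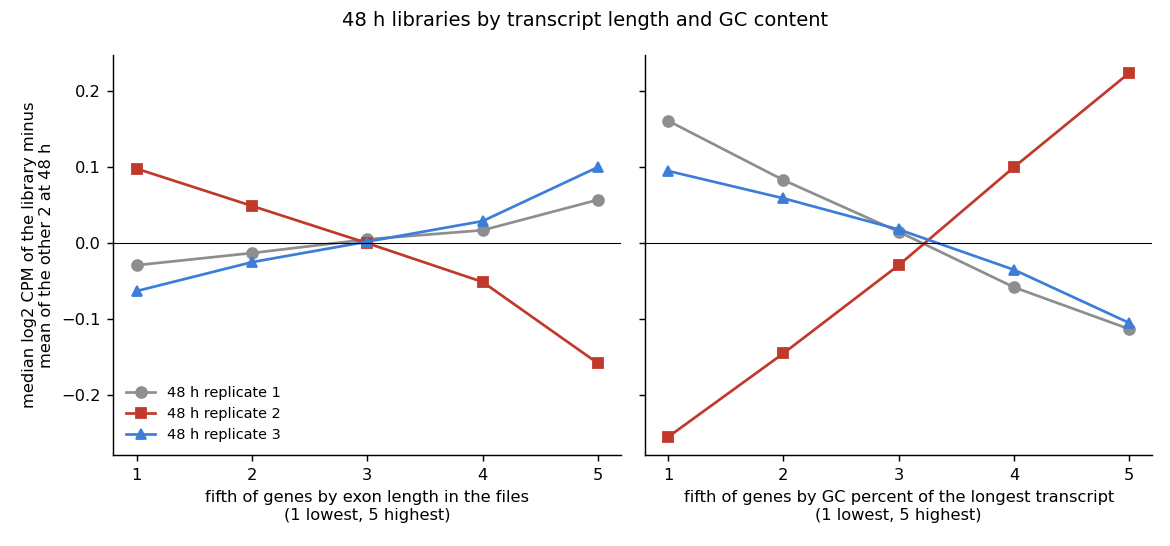
Median departure of each 48 h library (log2 CPM of the library minus the mean of the other 2) for genes in 5 equal groups by exon length (left) and by GC percent of the longest transcript (right). Replicate 2 (squares) falls from 0.10 to −0.16 with length and climbs from −0.26 to 0.22 with GC content, and replicates 1 and 3 slope the other way.

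At 48 h, 1653 genes (11% of those tested) differed from untreated cells: 679 were higher (4.52%) and 974 lower (6.49%). Most changes were small, with a median of 1.25-fold among called genes, and 360 genes had changed by 1.5-fold or more and 174 by 2-fold or more. Without 48 h replicate 2 the count was 2806 (18.7%; 1320 higher, 8.8%, and 1486 lower, 9.9%), and 1371 genes were called in the same direction in both fits, which is 82.9% of the first list and 48.9% of the second. With only the untreated and 48 h groups in the fit it was 422 (2.81%; 134 higher, 0.893%, and 288 lower, 1.92%). With the run as a term, which takes the 24 h response as equal in both lines, 393 genes were called (2.62%; 71 higher, 0.473%, and 322 lower, 2.15%). That estimate is the 48 h against 24 h change of APC-deleted cells plus the 24 h change of APC-intact cells. The untreated APC-deleted libraries do not enter it, so it borrows a part from the other line. Of the 15 largest falls that the naming rule admits, 15 were called without replicate 2 and 14 with the run as a term. Of the 15 largest rises these counts were 15 and 4. The shares of all genes given here for each fit are the background for the counts of list members below.

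**Figure D2:**
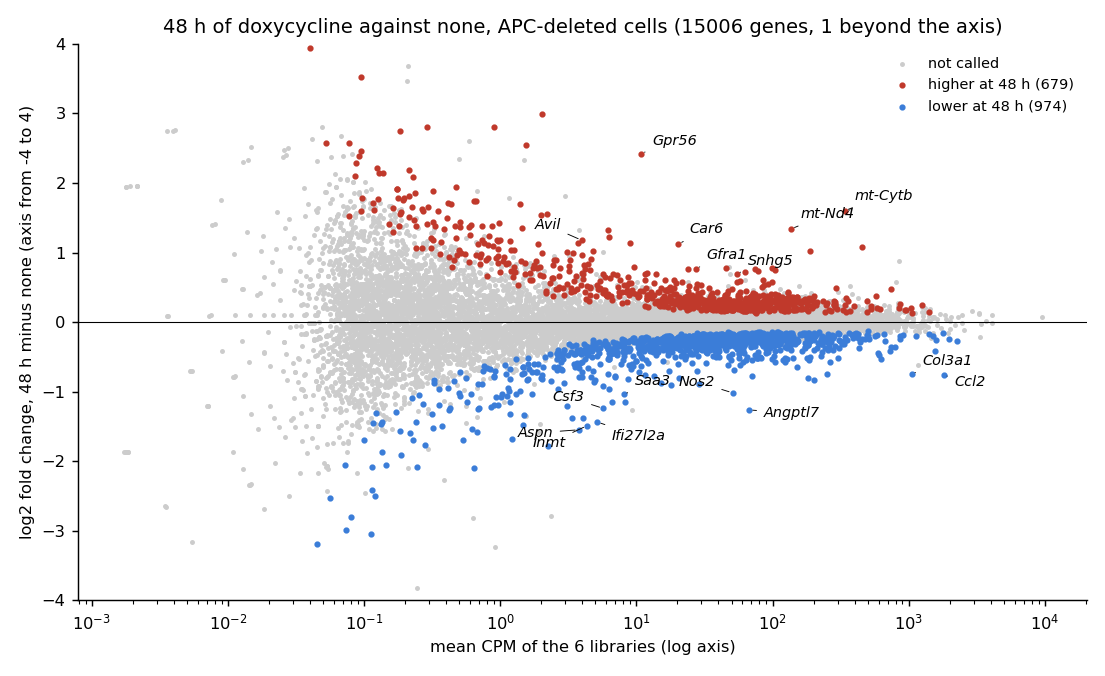
log2 fold change at 48 h against the mean CPM of the 6 libraries (log axis) for 15006 genes, 1 of which lies beyond the axis, with 679 called higher in red and 974 called lower in blue. Gpr56 stands above the other labelled genes at 2.42, and Aspn at −1.55 is the lowest of those labelled.

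Tdo2, the gene the hairpin is aimed at, was barely counted in any of the 6 libraries. It lies at chr3:81957090-81975750 (mm10, minus strand) and had 27, 6 and 13 counts without drug and 8, 7 and 13 at 48 h. Replicate 1 alone lifted the untreated group, and the ranges overlapped. The estimated fold was 0.656 (95% interval 0.311 to 1.39, adjusted p = 0.494 by edgeR's quasi-likelihood test), and 0.704 without 48 h replicate 2. The estimate turned to 1.05 (0.476 to 2.33) without untreated replicate 1. Against 24 h, within the run, the fold was 0.988 (0.457 to 2.14). Whether Tdo2 fell was not detectable at this depth. Apc, whose deletion both groups share, had 74.0, 79.5 and 72.2 CPM without drug and 89.8, 73.9 and 88.4 at 48 h, which overlap (adjusted p = 0.452). Counts over the whole gene do not show which exons were deleted.

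The list of the kynurenine pathway also takes in Inmt, which methylates tryptamine and is not an enzyme of that pathway. Apart from Inmt, the rest of the list was low or did not pass the test. Of 15 genes of the list found in the files, 7 passed the filter on low counts and 1 was called. Per length, the mean of the deposited RPKM without drug was 0.0372 for Tdo2, 0.00773 for Ido1 and 0.0589 for Ido2, the 3 enzymes that can start the pathway. At 48 h these were 0.0234, 0.00312 and 0.0398. Kynu, the kynureninase, had no count in any of the 6 libraries, and Kmo, the monooxygenase beside it, had 6 counts in 3 untreated libraries and 7 in the others. The later enzymes with wider roles were counted well: the mean RPKM of the transaminase Got2 was 82.4 without drug and 76.1 at 48 h, that of Ccbl2 6.11 and 5.86, and that of Ccbl1 0.987 and 0.901. Their log2 changes were −0.08 for Got2, −0.03 for Ccbl2 and −0.10 for Ccbl1, and −0.15 for the formamidase Afmid and −0.54 for Ido2, none of them called.

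Inmt, which methylates tryptamine and other indoles, was 1 of the strongest falls of all. It lies at chr6:55170626-55175043 and had 6.34, 5.29 and 7.53 CPM without drug and 2.42, 2.37 and 2.03 CPM at 48 h. Each 48 h library lay under each untreated one, at a log2 change of −1.49 ± 0.142 (adjusted p = 1.65e-06, edgeR). The change was −1.52 without 48 h replicate 2 and −0.99 with the run as a term, where it was called too. The latter value rests on the 24 h fall in APC-intact cells (mean 8.55 CPM without drug and 2.85 at 24 h). In APC-deleted cells at 24 h the level was lower still, at 1.48, 1.52 and 1.5 CPM. The 48 h level did not pass the test against it (0.59, adjusted p = 0.0987).

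The aryl hydrocarbon receptor and its partner rose a little. No tested target on that list was called higher with all 6 libraries, but without 48 h replicate 2 the target Tiparp was (0.32, adjusted p = 0.00548 by edgeR's quasi-likelihood test, and 0.00548 to 0.712 over the alternatives, against 0.281 with all 6 libraries). Of 8 tested genes of that list 2 were higher and 1 lower, against 4.52% and 6.49% of all genes, and 3 and 1 without 48 h replicate 2. Ahr had 38.5, 38.3 and 37.5 CPM without drug and 49.8, 43.0 and 51.1 CPM at 48 h, a log2 change of 0.33 ± 0.0696 (adjusted p = 0.00408, edgeR). Arnt, the partner with which it binds DNA, went from 125, 137 and 135 to 177, 157 and 178 CPM (0.37, adjusted p = 0.000369). Both sets of libraries stood apart. With the run as a term neither was called, and the change of Ahr was 0.02. Nqo1, a quinone reductase under both this receptor and NRF2, fell from 257, 240 and 238 to 205, 185 and 204 CPM (−0.31, adjusted p = 0.000518). It was called with the run as a term too (−0.46).

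Many interferon-stimulated genes were lower at 48 h. Of 45 tested, 28 were lower and none higher, against 6.49% and 4.52% of all genes tested, and the median change was −0.30 against −0.001 over all genes. Without 48 h replicate 2 it was again 28 lower and none higher, with 27 genes on both lists. With the run as a term 23 were lower (background 2.15%), and with only the untreated and 48 h groups in the fit 18. The changes of the 28 ran from −0.26 to −1.44, and for each of them the CPM of the 3 and 3 libraries did not overlap. Of all genes this held for 15% in that direction (10.6% in the other, 25.6% in either). The 28 were picked by the test on these same libraries, so their lack of overlap largely follows from that choice and is no further support. The same holds for every other called gene whose 2 sets of libraries are said here to lie apart. For the 15 largest rises and falls the naming rule itself asks for it.

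The largest fall of the list was that of Ifi27l2a, an interferon-induced protein of mitochondria. It lies at chr12:103442167-103443680 and had 7.79, 7.07 and 7.82 CPM without drug and 2.87, 3.01 and 2.49 CPM at 48 h (−1.44 ± 0.145, adjusted p = 2.99e-06, edgeR). Isg15, the ubiquitin-like modifier, fell from 115, 131 and 130 to 80.1, 88.8 and 82.7 CPM (−0.58 ± 0.0616, adjusted p = 6.18e-06). Usp18, the protease that removes ISG15 and damps the interferon receptor, went from 85.8, 90.3 and 97.4 to 65.1, 63.4 and 62.2 CPM (−0.52). In all 3 genes the lowest untreated library lay above the highest 48 h library, replicate 2 included.

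Sensors and effectors of the list were lower as well. Zbp1, a sensor of nucleic acids in the left-handed form, had 32.7, 36.0 and 34.3 CPM without drug and 21.8, 23.1 and 18.4 CPM at 48 h (−0.70 ± 0.0782, adjusted p = 9.47e-06, edgeR). Cmpk2, a nucleotide kinase of mitochondria, fell from 21.9, 26.1 and 24.7 to 15.7, 14.6 and 17.6 CPM (−0.60). Lgals3bp, a secreted glycoprotein, fell from 315, 318 and 316 to 236, 256 and 228 CPM (−0.40). Irf7, a transcription factor that amplifies the interferon response and was named after its values were seen, fell by 0.51 on the log2 scale. Ifit3, a binder of foreign RNA that was also picked after its values were seen, fell from 182, 249 and 263 to 141, 128 and 127 CPM (−0.81 ± 0.121, adjusted p = 0.000466), though members of its family can share reads.

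The promoters of these genes are shown as a description of the list. It holds genes known to be switched on through interferon-stimulated response elements. Many matches thus follow from its makeup and do not bear on the change at 48 h. Promoters were read from RefSeq (build GRCm38.p6), and the 250 bases before each start were searched on both strands for GAAA, any 2 bases and GAAA again, a plain form of the interferon-stimulated response element. Of the 28 lower genes 22 were in the table, and 11 of them (50.0%) held the motif, as did 13 of the 33 matched genes of the whole tested list (39.4%) and 3.46% of all 27025 promoters. A stretch of 100 bases is printed for Isg15 (chr4:156200827-156200926, minus strand) and for Ifit3 (chr19:34583343-34583442, plus strand), with bases inside a match on either strand in capitals.
Isg15: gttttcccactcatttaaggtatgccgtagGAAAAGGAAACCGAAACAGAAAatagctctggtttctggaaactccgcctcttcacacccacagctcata
Ifit3: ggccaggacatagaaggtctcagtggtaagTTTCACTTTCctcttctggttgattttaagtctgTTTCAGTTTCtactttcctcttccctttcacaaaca
The run of capitals in Isg15 is 3 overlapping matches, and Ifit3 has 2 separate ones that read on the other strand. A match is a description of the sequence and shows no binding.

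Some genes of MHC class I presentation were lower as well. Of 22 tested, 7 were lower and none higher, against 6.49% and 4.52% of all genes (median −0.13). Psmb10, a catalytic subunit of the immunoproteasome, had 62.8, 62.3 and 67.5 CPM without drug and 36.3, 44.4 and 39.0 CPM at 48 h, groups far apart (−0.69 ± 0.0689, adjusted p = 2.99e-06, edgeR). Psmb9, another such subunit, fell from 28.5, 30 and 32.9 to 22.4, 26.2 and 21.7 CPM (−0.38), and it overlaps Tap1 on the other strand. H2-T23, a non-classical class I molecule whose family can share reads, fell from 145, 147 and 160 to 116, 130 and 113 CPM (−0.33). Psme2, a proteasome activator subunit, and Tapbp, the peptide-loading chaperone tapasin, were lower by −0.30 and −0.26. With the run as a term 3 of the list were lower (2.15% of all genes). With only the untreated and 48 h groups in the fit it was 2 (1.92%).

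Chemokines, cytokines and colony-stimulating factors were the next list. Of 25 tested, 12 were lower and none higher, with a median of −0.36, and their falls ran from −0.36 to −1.78. Without 48 h replicate 2 and with the run as a term 13 were lower, which included 12 and 11 of these 12, and with only the untreated and 48 h groups in the fit 11. Ccl2 and Ccl7 are neighbouring genes whose products attract monocytes, and Ccl2 was the most abundant of the list members described here. Ccl2 had 2210, 2459 and 2137 CPM without drug and 1338, 1439 and 1231 CPM at 48 h (−0.76 ± 0.0673, adjusted p = 7.53e-07, edgeR). Ccl7 fell from 244, 266 and 268 to 160, 136 and 139 CPM (−0.84). Each 48 h library lay well under each untreated library for both genes.

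Csf3 and some ligands of the chemokine receptor CXCR2 were among the genes called lower. Csf3, the granulocyte colony-stimulating factor (chr11:98701263-98703629), had 9.85, 8.52 and 5.59 CPM without drug and 2.90, 3.63 and 3.62 CPM at 48 h (−1.24 ± 0.154, adjusted p = 3.46e-05, edgeR). Cxcl1, a ligand of CXCR2, fell from 320, 331 and 287 to 195, 190 and 173 CPM (−0.75 ± 0.08, adjusted p = 6.15e-06). Cxcl5, Cxcl3 and Ppbp, which is not on the list but among the 15 largest falls, lie in the same cluster on chromosome 5 and encode ligands of the same receptor. Ppbp went from 6.08, 5.46 and 5.89 to 2.62, 1.92 and 2.15 CPM (−1.38), Cxcl5 from 3.82, 3.00 and 3.66 to 1.08, 0.894 and 1.07 CPM (−1.78) and Cxcl3 from 2.03, 1.82 and 1.70 to 0.504, 0.700 and 0.526 CPM (−1.68). These 5 genes were lower in 3 of 3 libraries at 48 h than in any untreated library, as were 15% of all genes. For Csf3 and Ppbp the naming rule required this, and the others were picked by the test on these libraries. All 5 were called with the run as a term as well.

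For these genes the promoters were searched in the same way for GGGA, any 2 bases and TTCC, a plain form of the NF-kB site. Of the 12 lower genes 6 were in the table and 2 of them (33.3%) held the motif, as did 6 of the 16 matched genes of the whole tested list (37.5%) and 1.36% of all promoters. In the list of NF-kB feedback and the acute phase, described next, 2 of 20 matched genes held it (10%) and none of the 6 matched lower genes. The pair is printed, with capitals as above, for Cxcl1 (chr5:90891144-90891243) and Cxcl3 (chr5:90785998-90786097), both on the plus strand of GRCm38.p6.
Cxcl1: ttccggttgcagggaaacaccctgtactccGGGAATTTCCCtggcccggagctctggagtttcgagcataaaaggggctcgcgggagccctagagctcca
Cxcl3: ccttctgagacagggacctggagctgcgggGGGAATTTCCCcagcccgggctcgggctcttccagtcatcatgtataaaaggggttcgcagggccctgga
The capitals are the same in both, and in each they are 2 overlapping matches, 1 per strand.

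Inflammatory enzymes and acute phase proteins were also among the called falls. Of 25 tested genes of NF-kB feedback and the acute phase, 8 were lower and none higher. It was 11 and none without 48 h replicate 2, and 7 and none with the run as a term. Over all genes the shares lower in these fits were 6.49%, 9.9% and 2.15%. Nos2, the inducible nitric oxide synthase (chr11:78920787-78960254), had 63.4, 76.2 and 64.4 CPM without drug and 33.3, 34.3 and 33.1 CPM at 48 h (−1.02 ± 0.0781, adjusted p = 1.53e-07, edgeR). C3, the central complement protein, fell from 90.7, 88.7 and 89.0 to 50.1, 54.8 and 51.7 CPM (−0.78). The 48 h libraries were tightly grouped in both genes, and replicate 2 was the highest of them, still under each untreated library.

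Saa3, an acute phase serum amyloid whose family can share reads, fell from 11.7, 10.2 and 10.6 to 5.35, 5.65 and 4.83 CPM (−1.04 ± 0.119). Lcn2, which binds bacterial siderophores, fell from 4.66, 4.89 and 4.90 to 3.02, 3.08 and 2.27 CPM (−0.79). Nfkbiz, a nuclear IkB protein needed for a part of the NF-kB response, fell from 99.7, 108 and 100.1 to 85.3, 79.5 and 75.5 CPM (−0.36). The other called members of the list, among them the prostaglandin synthase Ptges at −0.28, fell by less than Nfkbiz.

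Interferon-stimulated and inflammatory genes differed in what the 24 h libraries showed. The 24 h and the 48 h comparison share the untreated libraries, so their values are only set side by side here. Of the 45 interferon-stimulated genes 24 were lower at 24 h and none higher, with a median of −0.28, beside the −0.30 at 48 h, and over all genes 878 were called at 24 h (5.85%; 2.08% higher and 3.77% lower). Between 24 and 48 h, within 1 run, none of the 45 was called, by edgeR's quasi-likelihood test. Of the 25 chemokines and cytokines 4 were lower and 3 higher at 24 h (median −0.01), and between 24 and 48 h 11 were lower and none higher (median −0.35). Over all genes 78 differed between 24 and 48 h (0.52%), 11 higher (0.0733%) and 67 lower (0.446%). Of the NF-kB and acute phase list 8 were lower and none higher between these times. A difference between the lists was not tested.

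**Figure D3:**
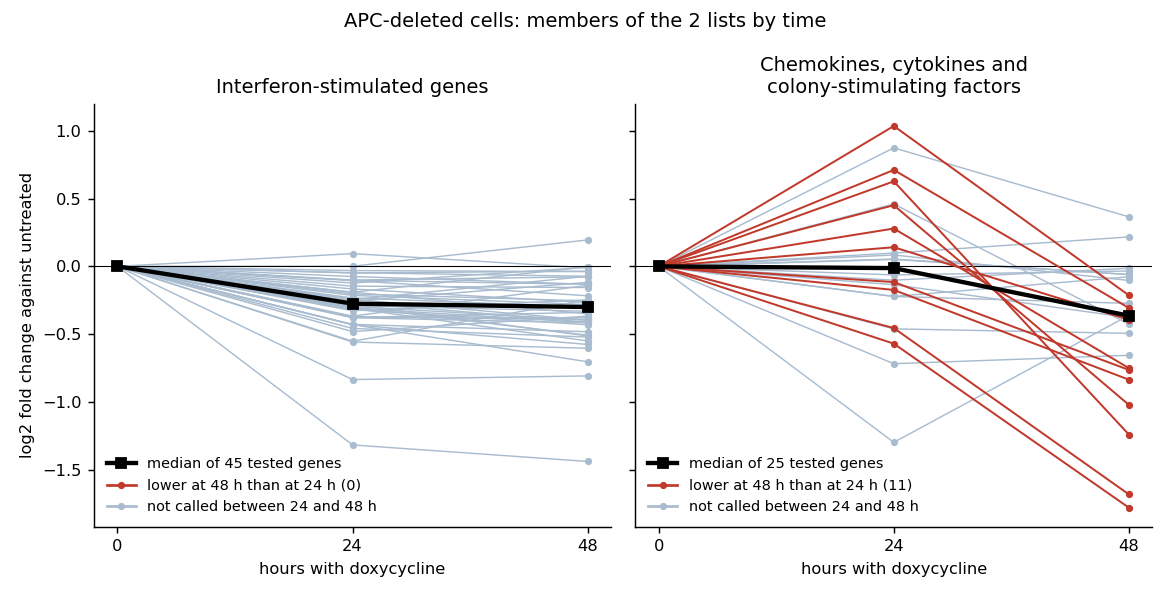
log2 fold change against untreated APC-deleted cells at 24 and 48 h for the 45 tested interferon-stimulated genes (left) and the 25 tested chemokines, cytokines and colony-stimulating factors (right). Black squares are list medians, −0.28 and −0.30 on the left and −0.01 and −0.36 on the right, and red lines are the 11 genes called lower at 48 h than at 24 h.

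The falls between 24 and 48 h were led by Csf3. It had 12.3, 13.3 and 11.4 CPM at 24 h, above 2.90, 3.63 and 3.62 CPM at 48 h (−1.87 ± 0.154, adjusted p = 7.24e-07, edgeR), and above its untreated level. Lcn2 likewise stood at 6.26, 7.93 and 7.92 CPM at 24 h, above both other groups, and then fell (−1.40 ± 0.116, adjusted p = 7.24e-07). Nos2 had 66.5, 75.4 and 74.7 CPM at 24 h, within reach of the untreated libraries, and was lower at 48 h by −1.10 (adjusted p = 1.83e-07). Cxcl1 had 426, 364 and 350 CPM at 24 h and was lower at 48 h by −1.03 (adjusted p = 5.39e-07). Saa3 was lower by −0.95 (adjusted p = 0.000135), from 10.5, 9.79 and 10.3 CPM. Ccl2 fell by 0.65 on the log2 scale between these times and C3 by 0.78.

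With all libraries in the fit few genes rose between 24 and 48 h (11, beside 67 that fell). Without 48 h replicate 2 it was 63 and 127, and with DESeq2 59 and 128. Klhl30, a kelch protein of little known function, had 11.1, 10.2 and 10.5 CPM at 24 h and 15.2, 17.3 and 15.2 CPM at 48 h (0.58 ± 0.0729, adjusted p = 0.000129, edgeR). Tgfbi, a matrix protein induced by TGF-beta, rose from 22.2, 21.6 and 20.3 to 28.4, 31.1 and 29.7 CPM (0.48). Both had been lower at 24 h than without drug (−0.34 and −0.35). Aqp1, a water channel, rose from 20.7, 21.2 and 23.8 to 29.4, 29.9 and 29.1 CPM (0.43), still under its untreated 37.3, 39.1 and 36.3 CPM. Cyp2d22 rose by 0.53 (adjusted p = 0.0448), a call lost when any of these 6 libraries but 48 h replicate 3 was left out (0.38 without 48 h replicate 2).

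Of matrix genes, the small leucine-rich proteoglycans bind collagen fibrils and growth factors. Of 10 tested 6 were lower and none higher (median −0.61). Of these 6, 5 were also called without 48 h replicate 2 and 4 with the run as a term. Aspn, asporin (chr13:49544443-49567557), had 6.31, 4.96 and 5.61 CPM without drug and 2.15, 1.58 and 2.02 CPM at 48 h (−1.55 ± 0.157, adjusted p = 3.09e-06, edgeR). Ogn, osteoglycin, fell from 145, 138 and 161 to 118, 84.2 and 95.8 CPM (−0.58). Aspn, Ogn and their neighbour Omd (−0.64, a call lost without 48 h replicate 2) all lie within the gene Cenpp on the other strand, and with no statement on strand in the sources used here, reads of the 2 strands cannot be told apart.

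Decorin and lumican showed the spread of levels in this family. Dcn had 707, 666 and 733 CPM without drug and 548, 447 and 520 CPM at 48 h (−0.47 ± 0.0671, adjusted p = 0.000127, edgeR). Lum was near the detection limit, at 1.21, 0.737 and 1.18 CPM without drug and 0.240, 0.246 and 0.236 CPM at 48 h (−2.10 ± 0.265). Bgn, biglycan, was more abundant and changed least, from 1576, 1587 and 1661 to 1423, 1395 and 1388 CPM (−0.20). No 48 h library reached the lowest untreated library in any of the 3 genes.

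Of 32 tested genes of the collagen and matrix assembly list 8 were called lower and none higher (median −0.11). Col1a1, a chain of collagen I, was not among them (−0.17, adjusted p = 0.0622 by edgeR's quasi-likelihood test). Without 48 h replicate 2 the list had 11 lower, and with the run as a term 5. With only the untreated and 48 h groups in the fit it was 3. Over all genes the shares lower were 6.49% in the main fit and 9.9%, 2.15% and 1.92% in these fits. Col3a1, the chain of collagen III, fell from 1455, 1169 and 1325 to 784, 777 and 794 CPM (−0.75 ± 0.0627, adjusted p = 4.69e-07, edgeR). Col6a1 and Col6a2, which pair in collagen VI, fell by 0.64 and 0.55 on the log2 scale. Mfap5, a microfibril protein, went from 68.1, 67.7 and 73.4 to 46.3, 47.6 and 42.9 CPM (−0.61). Several of these genes are also in the fibroblast list, of which 8 of 17 were lower and none higher, and whose summed level is given above. The part of any other cell type in these falls was not tested.

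Over all genes 6.49% were lower and 4.52% higher. Of 21 metalloproteinases, which cut matrix, and their inhibitors 9 were lower and 1, Mmp11, higher (median −0.16). With the run as a term 7 of these 9 and not Mmp11 were called. The 1 gene called higher there was Timp1 (0.53), which was not called in the comparison of all 6 libraries (−0.09). That 0.53 takes in the 24 h rise of Timp1 in APC-intact cells (mean 55.4 CPM without drug and 79.6 at 24 h). In APC-deleted cells its means were 39.7 CPM without drug, 37.1 at 24 h and 37.3 at 48 h. Mmp11 was named after its values were seen. Mmp13, a collagenase, had 7.21, 7.44 and 7.55 CPM without drug and 4.34, 3.34 and 4.05 CPM at 48 h (−0.92 ± 0.131, adjusted p = 0.000135, edgeR). The stromelysins Mmp3 and Mmp10 fell from 1.93, 1.45 and 1.64 to 0.595, 0.700 and 0.708 CPM (−1.32) and from 7.69, 8.49 and 10.3 to 5.56, 4.61 and 5.23 CPM (−0.78). For these 3 enzymes the groups did not overlap.

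Among the other large falls, Angptl7, a secreted angiopoietin-like protein (chr4:148495183-148500460), was the best counted. It had 98.1, 90.2 and 97.2 CPM without drug and 39.2, 44.4 and 35.2 CPM at 48 h (−1.26 ± 0.0724, adjusted p = 2.12e-09, edgeR), −1.35 without 48 h replicate 2 and −1.18 with the run as a term. It lies within Mtor on the other strand, with the same limit on strand as above. Islr, a stromal cell surface protein, fell from 40.1, 33.6 and 39.0 to 20.1, 23.2 and 17.4 CPM (−0.89). Fam213a, a redox protein, fell from 11.5, 10.4 and 12.4 to 5.05, 4.81 and 5.56 CPM (−1.15). Pspc1, a paraspeckle protein, went from 26.6, 22.5 and 20.7 to 12.7, 12.5 and 12.2 CPM (−0.90). A4galt, which makes the glycolipid Gb3, and the ligand Wnt6 fell by 0.96 and 0.86 on the log2 scale, and Wnt6 was the 1 gene of the 15 not called with the run as a term.

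The rise of Gpr56, an adhesion receptor that binds collagen III (chr8:94977109-95014208), was the largest of those the naming rule admits. It had 3.01, 3.20 and 4.01 CPM without drug and 18.5, 18.4 and 17.9 CPM at 48 h. That is 5.37 times the untreated level (2.42 ± 0.0918, adjusted p = 1.98e-12, edgeR), with the 3 libraries at 48 h almost equal. The log2 change was 2.42 without 48 h replicate 2 as well and 1.79 with the run as a term, where it was called too. The latter value takes in the 24 h rise in APC-intact cells (mean 2.71 CPM without drug and 7.76 at 24 h). In APC-deleted cells at 24 h Gpr56 had 14.3, 15.6 and 15.5 CPM. The step from 24 to 48 h did not pass the test (0.27, adjusted p = 0.23).

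**Figure D4:**
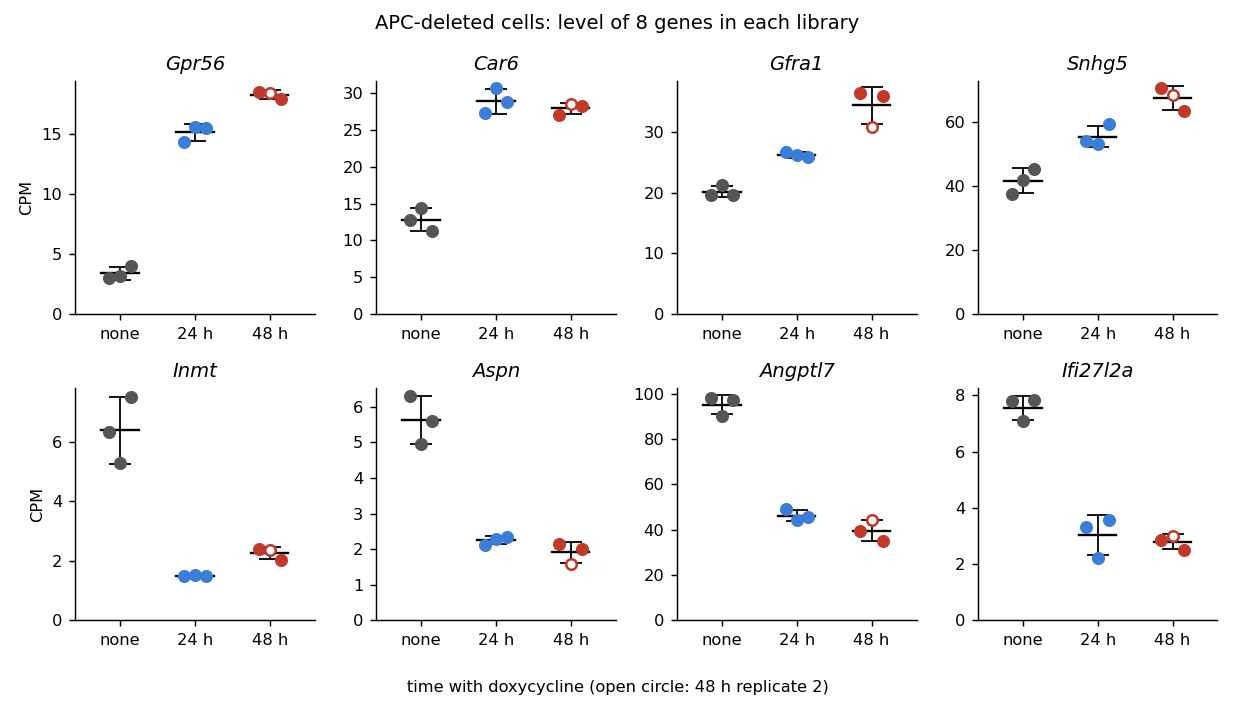
CPM of 4 genes that were higher (top) and 4 that were lower (bottom) at 48 h in each of the 9 APC-deleted libraries, with mean and SD of 3 as bars. Open circles are 48 h replicate 2, which was the lowest 48 h library for Gfra1 (30.9 CPM) and Aspn (1.58 CPM) and the highest for Angptl7 (44.4 CPM), on the same side of the untreated libraries as the others.

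Further rises that were called in each of the main fit, the fit without 48 h replicate 2 and the fit with the run as a term were those of Car6, Avil and Gfra1. Car6, a secreted carbonic anhydrase, went from 12.7, 14.4 and 11.3 to 27.1, 28.5 and 28.2 CPM (1.12 ± 0.0734, adjusted p = 1.56e-08, edgeR). Avil, advillin, an actin-binding protein that is used as a marker of tuft cells, went from 2.34, 2.18 and 2.75 to 5.01, 5.71 and 5.71 CPM (1.18). It overlaps Tsfm on the other strand. Gfra1, the co-receptor of GDNF, went from 19.7, 21.2 and 19.7 to 36.5, 30.9 and 35.9 CPM (0.77 ± 0.0612, adjusted p = 2.12e-07). It was the 1 gene of the 15 rises that was also higher at 48 h than at 24 h (0.39, adjusted p = 0.00162).

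A part of the other rises leaned on 48 h replicate 2. Erdr1 had 7.71, 21.7 and 7.77 CPM at 48 h against 5.54, 5.63 and 5.74 CPM without drug, and its change of 1.13 was 0.46 without that library. Sh2d6, an adaptor protein, had 4.59, 9.07 and 5.70 CPM at 48 h, and its change went from 1.03 to 0.71. Apoe, apolipoprotein E, had 4.51, 8.73 and 5.03 CPM and went from 0.91 to 0.56. Ankrd16 (0.79), Ovgp1 (0.83) and Ogt (0.78), the transferase that adds O-GlcNAc to proteins, were highest in replicate 2 too, at 15.8, 7.18 and 152 CPM. Ovgp1 overlaps Wdr77 on the same strand, a gene with a far higher mean of 69.9 CPM. All 6 of these genes were still called without replicate 2, and none with the run as a term.

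A part of the mitochondrially encoded mRNAs rose. Of 13 tested 7 were higher and none lower (median 1.03), also 7 without 48 h replicate 2. With the run as a term none was called (edgeR), and the median was 0.38. mt-Cytb, the cytochrome b of complex III, had 165, 123 and 219 CPM without drug and 482, 614 and 441 CPM at 48 h (1.60 ± 0.214, adjusted p = 0.00042, edgeR). mt-Nd4 and mt-Nd5, subunits of complex I, went from 70.3, 57.9 and 105 to 184, 247 and 159 CPM (1.34) and from 126, 91.3 and 157 to 264, 276 and 222 CPM (1.03). The untreated libraries varied among themselves, with replicate 3 highest and replicate 2 lowest in all 3 genes, but the groups did not overlap.

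None of 55 nuclear genes of oxidative phosphorylation was called in either direction, and 3 of 59 genes of the mitochondrial ribosome were lower. Over all genes 6.49% were lower, which the count of 3 does not exceed. Reads of the mitochondrial genome took 0.205, 0.144 and 0.274% of gene counts without drug and 0.379, 0.469 and 0.305% at 48 h. Mitochondrial genes have copies in the nuclear genome, mt-Nd5 overlaps mt-Nd6 on the other strand, and counts depend on how RNA was selected, so the values are uncertain as levels. At 24 h, in the same run as 48 h, 6 of the 13 were higher than without drug, and none was called between 24 and 48 h. The part of the run in the rise was not tested beyond the fit with a run term.

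Some host genes of small nucleolar RNAs rose in the list named nuclear noncoding RNAs. Where in the cell these RNAs lie was not tested. Of 11 tested 5 were higher and 1 lower (median 0.40), with 5 and none without 48 h replicate 2. With the run as a term it was 3 and none. Over all genes the shares higher in these fits were 4.52%, 8.8% and 0.473%. Snhg5 had 37.5, 41.9 and 45.3 CPM without drug and 70.5, 68.3 and 63.5 CPM at 48 h (0.70 ± 0.0657, adjusted p = 1.53e-06, edgeR). Snhg1 went from 61.3, 72.0 and 71.2 to 115, 89.7 and 105 CPM (0.60), and Gas5, which gathers when translation or growth is slowed, from 461, 500.5 and 544 to 663, 671 and 626 CPM (0.38). Snhg12 and Snhg6 rose by 0.40 and 0.29. The groups did not overlap for these 5 genes. H19 fell from 1.78, 1.47 and 2.37 to 1.25, 0.609 and 0.955 CPM (−0.99), a call lost without 48 h replicate 2 (adjusted p = 0.0912, and 0.0106 to 0.168 over the alternatives).

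Lists of growth and lipid synthesis held smaller counts of called genes. Of 36 genes of S phase and DNA replication 13 were lower and none higher (median −0.13). The count lower was 17 without 48 h replicate 2 and 5 with the run as a term. With only the untreated and 48 h groups in the fit it was 1. Over all genes the shares lower in these fits were, in the same order, 6.49%, 9.9%, 2.15% and 1.92%. Rrm2, a subunit of ribonucleotide reductase, fell from 255, 258 and 248 to 215, 188 and 210 CPM (−0.31 ± 0.0507, adjusted p = 0.000516, edgeR). Mcm5 and Mcm6, parts of the replicative helicase, fell by 0.27 and 0.24 on the log2 scale. Of 31 genes of G2 and M phase none was called, but without 48 h replicate 2 it was 8 higher and 2 lower, against 8.8% and 9.9% of all genes in that fit. Fdps of the mevalonate pathway fell from 72.2, 76.0 and 80.5 to 50.3, 50.8 and 55.9 CPM (−0.54), among 6 of 21 genes of cholesterol synthesis that were lower. Of these 6, 4 were called without 48 h replicate 2 and 2 with the run as a term, and with only the untreated and 48 h groups in the fit 2 genes of the list were lower. Of 23 genes of fatty acid synthesis and handling 4 were lower and 1 higher, against 6.49% and 4.52% of all genes (median −0.05). The desaturases Scd2 and Fads2 fell by 0.54 and 0.51 on the log2 scale, and Angptl4, an inhibitor of lipoprotein lipase, rose by 0.56.

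Antioxidant genes under NRF2 were lower in 6 of 27 cases and higher in 1 (median −0.09), against 6.49% and 4.52% of all genes. The lower count was 9 without 48 h replicate 2, with 5 of the 6 among them, 5 with the run as a term and 3 with only the untreated and 48 h groups in the fit. Hmox1, haem oxygenase 1, had 104, 113 and 103 CPM without drug and 77.4, 81.8 and 77.5 CPM at 48 h (−0.43 ± 0.0553, adjusted p = 4.33e-05, edgeR). Srxn1, sulfiredoxin, went from 64.0, 64.1 and 64.3 to 52.3, 51.9 and 52.2 CPM (−0.30). Slc7a11, the cystine transporter, fell from 56.5, 60.9 and 51.0 to 42.4, 31.5 and 44.4 CPM (−0.51, adjusted p = 0.018), lowest in replicate 2. Its call was lost without that library (−0.37) and with the run as a term. For these 3 genes each 48 h library lay under each untreated library.

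**Figure D5:**
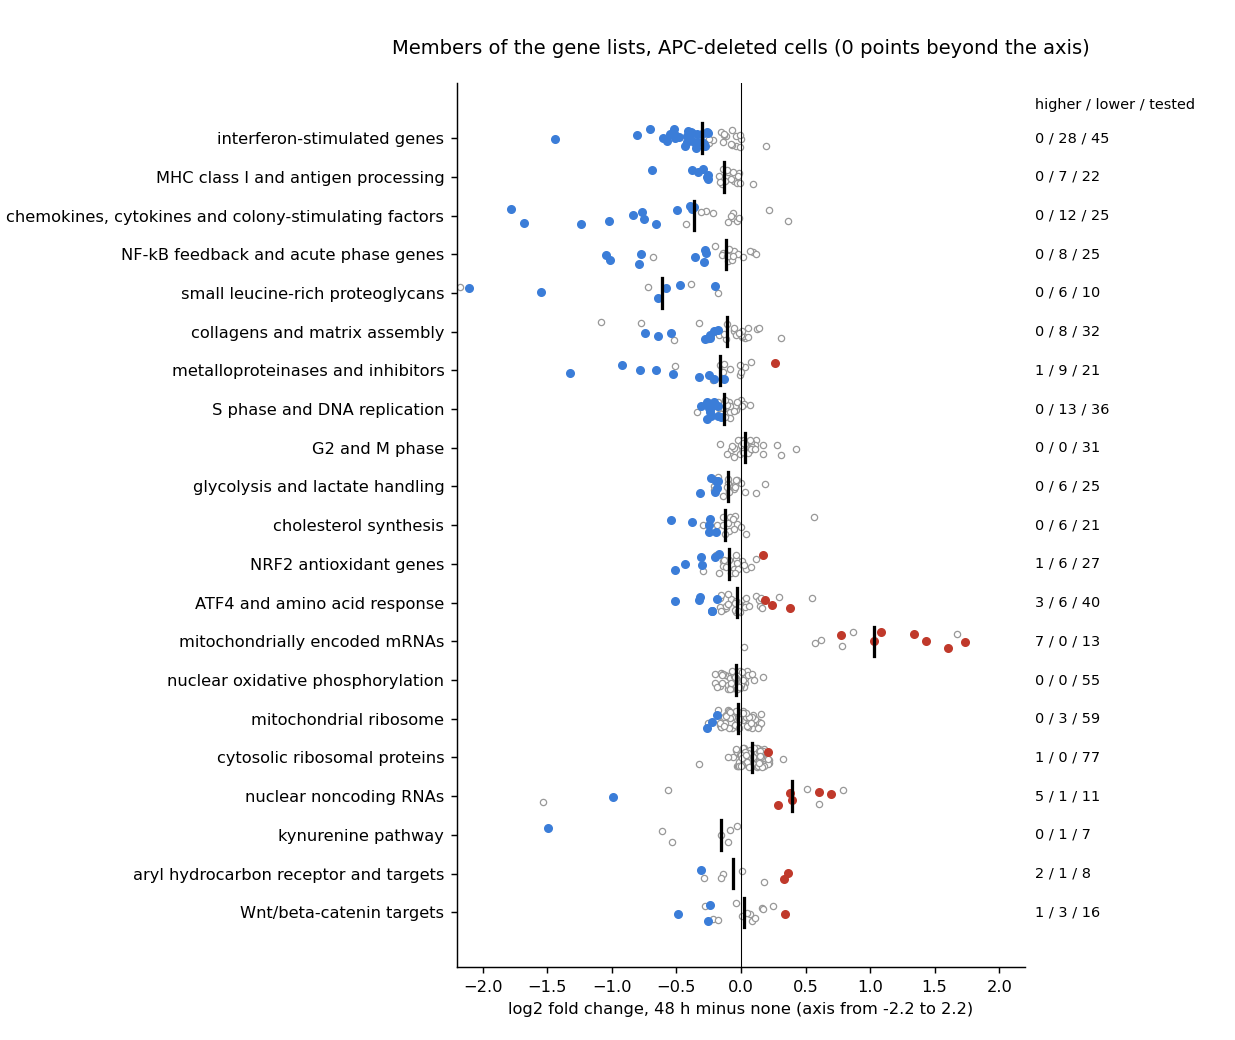
log2 fold change at 48 h of every tested member of 21 gene lists (points), with called members in red (higher) or blue (lower), uncalled ones open, and the list median as a bar. The medians of interferon-stimulated genes (−0.30), chemokines (−0.36) and small leucine-rich proteoglycans (−0.61) lie to the left of 0 and that of mitochondrially encoded mRNAs (1.03) to the right.

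The response of the APC-deleted line was set against that of the APC-intact line, whose untreated and 48 h libraries also lay in different runs. At 48 h 1703 genes were called in APC-intact cells (11.3%; 572 higher, 3.81%, and 1131 lower, 7.54%), and 781 were called in the same direction in both lines, which is 47.2% of the APC-deleted and 45.9% of the APC-intact list. A test of the difference between the responses called 4 genes (0.0267%; 3 higher, 0.02%, and 1 lower, 0.00666%). The count at an unadjusted p under 0.05 was 1051, and DESeq2 called 58. Of the interferon-stimulated list 39 were lower in APC-intact cells beside 28 in APC-deleted cells, and of the chemokine list 19 beside 12. The list medians were −0.535 and −0.748 in APC-intact cells, beside −0.30 and −0.36 in APC-deleted cells. The median difference between the lines was 0.269 and 0.367, against 0.005 over all genes, and was not tested for the lists as sets. Gene by gene, only Mx2 and Cxcl1 of these lists passed the test of the difference. Gpr56 rose by 1.75 in APC-intact cells, and the difference of 0.68 between the lines did not pass (adjusted p = 0.105).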

How the data were processed

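RNA sequencing libraries of APC-deleted MC38 cells, untreated or given doxycycline for 48 h, were grouped by title (3 and 3). The other 12 libraries entered the same fit. What the authors deposited is a table for each library with raw counts and RPKM by gene. The submitters' processing notes list STAR, HTSeq and mm10, while versions, strand use and the annotation release are not given in the sources used here. RPKM, as deposited by the authors, was used only where levels of different genes stand side by side. Lines of the count tables without a gene held 22.9 to 25% of the totals of the 6 libraries, and neither library sizes nor tests include them. Overlap with other tested genes was looked up in GENCODE for 249 genes, of which 48 overlap.

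The main test was the quasi-likelihood test of edgeR 4.0.16 (R 4.3.3) with TMM factors, filterByExpr, 1 coefficient for each of 6 groups and robust estimation, two-sided, with Benjamini-Hochberg adjustment. The common biological coefficient of variation was 8.33%. Intervals are 95% intervals from this fit. Every pair of replicates differed by more than sampling noise, so each library counted as 1. The members and the 39 gene lists were chosen with earlier results of these data known. Genes open to naming among the largest changes were called, reached 5 CPM in 1 group, did not overlap between groups and had no provisional name. From these came the 15 largest rises and falls. Without these filters, up to 6 tested genes of each list were named by smallest adjusted p, besides the kynurenine list, 5 genes each way for other comparisons, and the 10 highest and lowest genes of 48 h replicate 2. Not all of these are described, and other genes were picked after their values were seen.

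Alternatives were DESeq2 1.42.0, median-of-ratios factors, no filter, thinned counts, a block for replicate numbers, only the groups compared, the run as a term, and each library left out. The run as a term was computed as a contrast of the group coefficients of the main fit. Correction for GC content and length was added after seeing the data. On simulated data for this comparison edgeR (14404 genes) found 99% of 100 genes changed by 1.5-fold and 100% of those changed by 2-fold, with 10 false calls. DESeq2 (14988 genes) found 97% and 100%, with 25 false calls. The simulated counts had the same spread for every gene, no run effect, no trend with GC content or length and no outlying library. They show that the tests find planted changes and do not give the error rate in the real libraries. Promoters came from an incomplete RefSeq table. Figures were drawn with matplotlib 3.10.9.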

Additional observations from a re-analysis of the deposited data

Results flagged for a closer look

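Of all genes tested, 4 responded differently at 48 h in the APC-deleted and the APC-intact line by the test of the difference itself (edgeR's quasi-likelihood test, 3 libraries in each of 4 groups). With 1 of the 12 libraries left out 0 to 3 genes were called, and 0 when only these 4 groups were fitted (1103 at an unadjusted p under 0.05, and 58 by DESeq2 on all groups). Timp1, an inhibitor of metalloproteinases that overlaps Syn1 on the other strand, differed by −0.494 (log2, APC-deleted minus APC-intact, adjusted p = 0.0361), from a change of −0.09 where APC was deleted and 0.41 where it was intact. Mx2, an interferon-induced GTPase, differed by 0.835 (adjusted p = 0.0361), with 0.20 and −0.64 in the lines. Cxcl1 differed by 0.685 (adjusted p = 0.0361), with −0.75 and −1.44. Bcl2l15, of the BCL2 family, differed by 0.590 (adjusted p = 0.0452), with 0.11 and −0.48.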

How the results depend on the processing

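Against 1653 genes called at 48 h, the count was 422 when only the groups compared were fitted, 393 with the run as a term and 865 to 2806 without 1 library (865 without untreated replicate 1, 1024 without untreated replicate 2, 2806 without 48 h replicate 2). With GC content and length corrected, an alternative chosen after seeing the data, it was 2594 with replicate 2 and 2496 without it. DESeq2 called 2114 genes, 1648 of them shared. The share of higher calls was 41.1%, and 18.1% with the run as a term, and median-of-ratios factors gave 1657. Replicate numbers did not pair the samples (correlations of 0.0158, −0.0883 and 0.0311 between same-numbered untreated and 48 h libraries), and a replicate block gave 1801. The 48 h against 24 h count of 78 was 187 with DESeq2, 25 with only the groups compared and 47 to 190 without 1 library (47 without 24 h replicate 2, 190 without 48 h replicate 2). The 4 genes of the difference between lines became 58 with DESeq2, 14 without the filter, 0 with only the groups compared (1103 at an unadjusted p under 0.05) and 0 to 3 without 1 library. Tdo2 went from −0.608 to 0.075 without untreated replicate 1, and ran from −1.004 to 0.075 over the libraries left out. Signs turned with the run as a term, which takes in the 24 h change of APC-intact cells, for mt-Nd2 (−0.149), Mx2 (−0.236), Bcl2l15 (−0.321), Timp1 (0.533) and Ido2 (0.232). With GC content and length corrected they turned for Ccbl2 (0.009, and 0.015 without replicate 2), Apc (−0.004 and −0.039) and, without replicate 2, Got2 (0.041). The change of Cyp2d22 against untreated cells ran from −0.009 without 48 h replicate 2 to 0.299 without untreated replicate 3. The causes were not tested.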

Other observations

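Some groups not described above held called genes in both directions, and their counts stand against 4.52% of all genes higher and 6.49% lower. Of 37 lysosome and autophagy genes 6 were higher and 1 lower (10 and 2 without 48 h replicate 2). Gpnmb, a lysosomal glycoprotein, had 304, 305 and 304 CPM without drug and 380, 406 and 377 CPM at 48 h (0.35 ± 0.0424, adjusted p = 2.78e-05, edgeR's quasi-likelihood test), and Npc1, the cholesterol exporter of lysosomes, rose by 0.34. Flcn, which acts in nutrient sensing at the lysosome, rose by 0.48 (0.29 without 48 h replicate 2, in which it was highest, at 73.2 CPM), and the protease Ctss fell by 0.82 on the log2 scale. Of 23 integrins and laminins 2 were higher and 3 lower: Itgb7 rose from 620, 620 and 612 to 818, 916 and 849 CPM (0.48), and Itgb5 fell from 229, 224 and 233 to 167, 179 and 171 CPM (−0.41). Of 16 Wnt and beta-catenin targets 1 was higher and 3 lower, among them Sox9 (0.34), Dkk2 (−0.49) and Ccnd1 (−0.24).

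Immediate early genes were lower in 4 of 31 cases and higher in 1, against the same 6.49% and 4.52% of all genes. Ier3 fell from 154, 139 and 141 to 99.0, 103 and 102 CPM (−0.51), Jun fell by 0.46 on the log2 scale, and Klf10 rose by 0.32. Glycolysis genes were lower in 6 of 25 cases, led by the lactate exporter Slc16a3 (−0.31), but none of these 6 was called with the run as a term (2 other genes of the list were lower there) and none of the list when only the untreated and 48 h groups were fitted. Of 13 genes of NAD synthesis and use 2 were lower, Nnmt (−0.30) and Nmnat2 (−0.35), and none was called with the run as a term. Of 17 tested epithelial genes 1 was higher and 2 were lower. Krt8 fell from 3.85, 3.77 and 3.87 to 1.8, 2.18 and 2.26 CPM (−0.88), Cldn4 fell by 0.67 on the log2 scale (a call lost without 48 h replicate 2), and Lgals4, at a low level, rose by 1.13 (0.86 without 48 h replicate 2, in which it was highest, at 3.51 CPM). Of 27 p53 targets 3 were higher and 3 lower, of 18 genes of the unfolded protein response 2 and 3, and of 40 genes of the ATF4 response 3 and 6, against 4.52% and 6.49% of all genes. The medians of these 3 lists were 0.06, −0.01 and −0.03.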
